A study of Mus musculus with 35 samples.

Results

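Prefrontal cortex (PFC) microglia were compared with midbrain microglia of the same mice, using every sample labelled with either brain region. These were 11 PFC and 12 midbrain samples, 23 of the 35 samples in the series, and all 21236 genes of the counts table were tested. The other 12 samples were striatum microglia, and 1 of them (mouse 3) carries a column name that reads PFC but a label that reads striatum, so it was not used as PFC. All were Tmem119-2A-CreERT2/ Ai14(RCL-tdTomato)-D adults and all received tamoxifen, so the alleles and the drug were the same in both regions. In these mice tamoxifen lets a Cre recombinase made under the control of Tmem119, a microglial gene, switch on the red protein tdTomato. Cells positive for tdTomato were sorted from each dissected region, which selects for cells that had made this recombinase. The 12 mice were labelled as 6 males and 6 females. The male PFC group had 5 samples and every other group had 6. Each sample was 1 region of 1 mouse, identified by the number in its title, and 11 mice gave both regions. RNA was made into full-length cDNA with Smart-Seq HT and sequenced in paired reads, and the deposited values were raw counts per gene, from 37680501 to 54131421 per PFC or midbrain sample.

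Microglia are the resident macrophages of the brain. At rest they express a set of receptors and adhesion molecules that is called homeostatic, and with age, injury or contact with debris some of them switch on genes of antigen presentation, the interferon response, lipid uptake and lysosomal breakdown, a state known as disease-associated. The midbrain holds dopamine neurons and many myelinated fibres, whereas the PFC is a cortical region rich in glutamatergic neurons, and microglia are known to differ between such regions.

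The samples had the transcripts of the labelled cell type. Summed over 12 microglial markers, which hold Tmem119, P2ry12 and Csf1r, levels lay between 43827 and 51055 CPM (counts relative to library size, scaled with edgeR's TMM factors) in the PFC and between 42578 and 48184 CPM in the midbrain. Lists of neurons (17 genes, 25.6 to 51.7 CPM), endothelial cells (10 genes, 11.7 to 67.6 CPM) and border macrophages (10 genes, 76 to 219 CPM) were present in both regions. Higher sums were those of lymphocytes (9 genes, 529.7 to 988 CPM), astrocytes (11 genes, 225 to 588 CPM), oligodendrocytes (12 genes, 231 to 538 CPM) and monocytes and neutrophils (7 genes, 203 to 539.7 CPM). Only 3 of the lymphocyte genes and 2 of the monocyte and neutrophil genes averaged 1 CPM or more, so these 2 sums rest on few genes. The listed markers Cd3e, Cd3g, Cd8a and Ncr1, and Chil3, Ly6g, Retnlg, Cxcr2 and Mmp9, were not in the table. Of 13 genes that mark forebrain neurons, 12 were in the table and summed to 5.13 to 14.3 CPM in the PFC and 0.771 to 2.24 CPM in the midbrain, without overlap. The 3 libraries of mouse 2, labelled female, held 0 CPM of Xist, the RNA that silences an X chromosome, and 0 CPM of the Y-linked Ddx3y, Eif2s3y, Kdm5d and Uty. The other libraries labelled female held 38.4 to 87.3 CPM of Xist, and those labelled male held 50.3 to 91.1 CPM of Ddx3y. Mouse 2 was kept with its label, and without it 1154 genes were called. The midbrain sample of mouse 6 stood above the others in several immune genes, which are given below with and without that mouse.

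Between PFC and midbrain, 1385 of 21236 genes (6.52%) differed at a Benjamini-Hochberg adjusted p under 0.05 in edgeR's quasi-likelihood F-test, from a fit of region and sex over all 35 samples. Of these, 611 (2.88% of all genes) were higher in the PFC and 774 (3.64%) were higher in the midbrain, and genes past this threshold are referred to as called. Of the called genes that averaged 8 CPM or more, 274 were higher in the PFC with a median fold of 1.26, and 366 were higher in the midbrain with a median fold of 1.32. Under 1 CPM lay 218 of the genes called higher in the PFC and 190 of those called higher in the midbrain. In 28 and 41 of the called genes, 1 sample held over 50% of the CPM summed over the 23 samples, and for 22 of those 41 it was the midbrain of mouse 6. In bulk samples, more cells that express a gene and more of its RNA in each cell cannot be told apart, which holds for every gene described here. Across all genes the median log2 fold change (PFC minus midbrain, as everywhere here) was 0.011. The gene lists described below were chosen with earlier results of these samples known, so their shares of calls are not independent evidence.

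**Figure D1:**
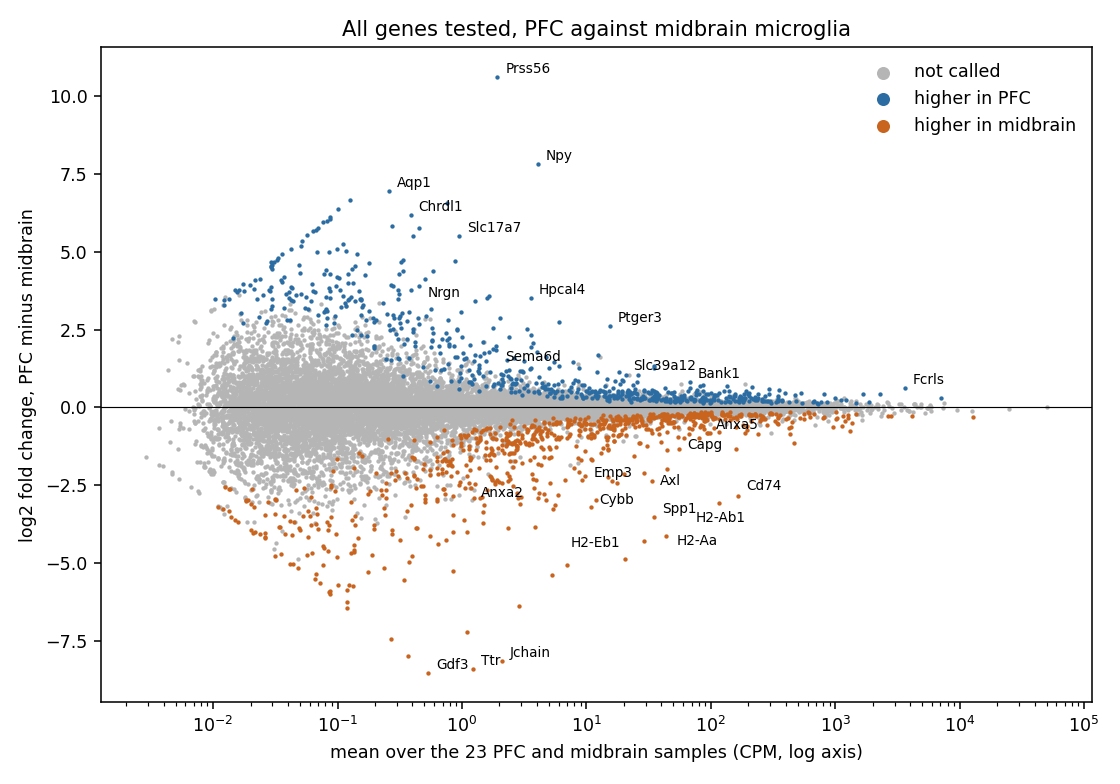
Each point is 1 of the 21236 genes, with the mean over the 23 samples in CPM on a log axis and the log2 fold change of PFC minus midbrain on the vertical axis. Blue points were called higher in the PFC (611) and orange points higher in the midbrain (774); at the right, where genes are abundant, called genes lie close to 0, while H2-Eb1, H2-Aa and Spp1 reach far below and Ptger3 stands above.

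Some genes separated the regions completely. In 27 genes (0.127% of those tested) every PFC sample lay above every midbrain sample, and in 74 (0.348%) every PFC sample lay below every midbrain sample. With a mean of at least 8 CPM, 14 and 40 genes did so. Among called genes of that level, 134 were higher in the PFC and 203 higher in the midbrain in all 11 mice. A test of whether the regional difference itself differed between females and males called 0 genes (0%), with 885 at an unadjusted p under 0.05 and a smallest adjusted p of 0.781, and DESeq2 also called 0, with 683. A p that misses the threshold does not show that the sexes had equal differences. Mice 1 to 6 and mice 7 to 12 were also fitted apart, and all 640 called genes that averaged 8 CPM or more had the same sign in both, as they did in males and in females, although the calls were made on the same samples.

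The 10 genes with the smallest p among those higher in the midbrain came from several families. Emp3, a tetraspan membrane protein of the PMP22 family (ENSMUSG00000040212, chromosome 7 of GRCm38, 45918023 to 45921404), measured 6.39 to 14.1 CPM in the PFC with a median of 11.8, and 37.4 to 57.5 CPM in the midbrain with a median of 45.7. The lowest midbrain sample was well above the highest PFC sample (log2 fold change -2.12, SE 0.14, adjusted p = 2.10e-13). Anxa5, annexin A5, which binds exposed phosphatidylserine on dying cells (ENSMUSG00000027712, chromosome 3 of GRCm38, 36448923 to 36475894), measured 57.5 to 73.7 CPM (median 66.1) in the PFC and 106 to 143 CPM (median 116) in the midbrain. Its log2 fold change was -0.83 (SE 0.055, adjusted p = 2.10e-13), and no samples overlapped. Anxa2, which links membranes to actin and binds the S100a10 protein, measured 0.364 to 1.84 CPM in the PFC and 4.96 to 10.3 CPM in the midbrain (log2 fold change -2.76, adjusted p = 2.91e-10). Capg, which caps actin filaments in macrophages, had medians of 32.7 CPM in the PFC and 76.1 CPM in the midbrain (log2 fold change -1.35, adjusted p = 9.88e-12). Fxyd5, a regulator of the sodium pump and of cell adhesion, lay between 1.1 and 4.77 CPM in the PFC and between 16.1 and 34.5 CPM in the midbrain, a log2 fold change of -2.96 (SE 0.22, adjusted p = 7.05e-12). None of these 5 genes had overlapping groups.

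The other 5 genes included a secreted factor and surface receptors. Tnfsf13b, the B-cell survival factor BAFF, measured 6.33 to 16.5 CPM in the PFC and 27.5 to 43.7 CPM in the midbrain (log2 fold change -1.57, SE 0.11, adjusted p = 1.04e-12). Gpr65, a receptor that senses acid outside the cell and signals through cAMP, had medians of 7.65 CPM in the PFC and 29.7 CPM in the midbrain (log2 fold change -2.14, adjusted p = 6.55e-11). Pdcd1, the checkpoint receptor PD-1, lay between 3.19 and 10.6 CPM in the PFC and between 15.3 and 40.2 CPM in the midbrain (log2 fold change -2.22, adjusted p = 1.44e-10). Stbd1, which binds glycogen, and Naalad2, a peptidase of the family that cleaves N-acetylaspartylglutamate, changed by -1.32 and -1.36 on the log2 scale (adjusted p = 6.55e-11 and 4.02e-10). In all 5 genes every midbrain sample lay above every PFC sample, and the call stood without any single mouse.

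**Figure D2:**
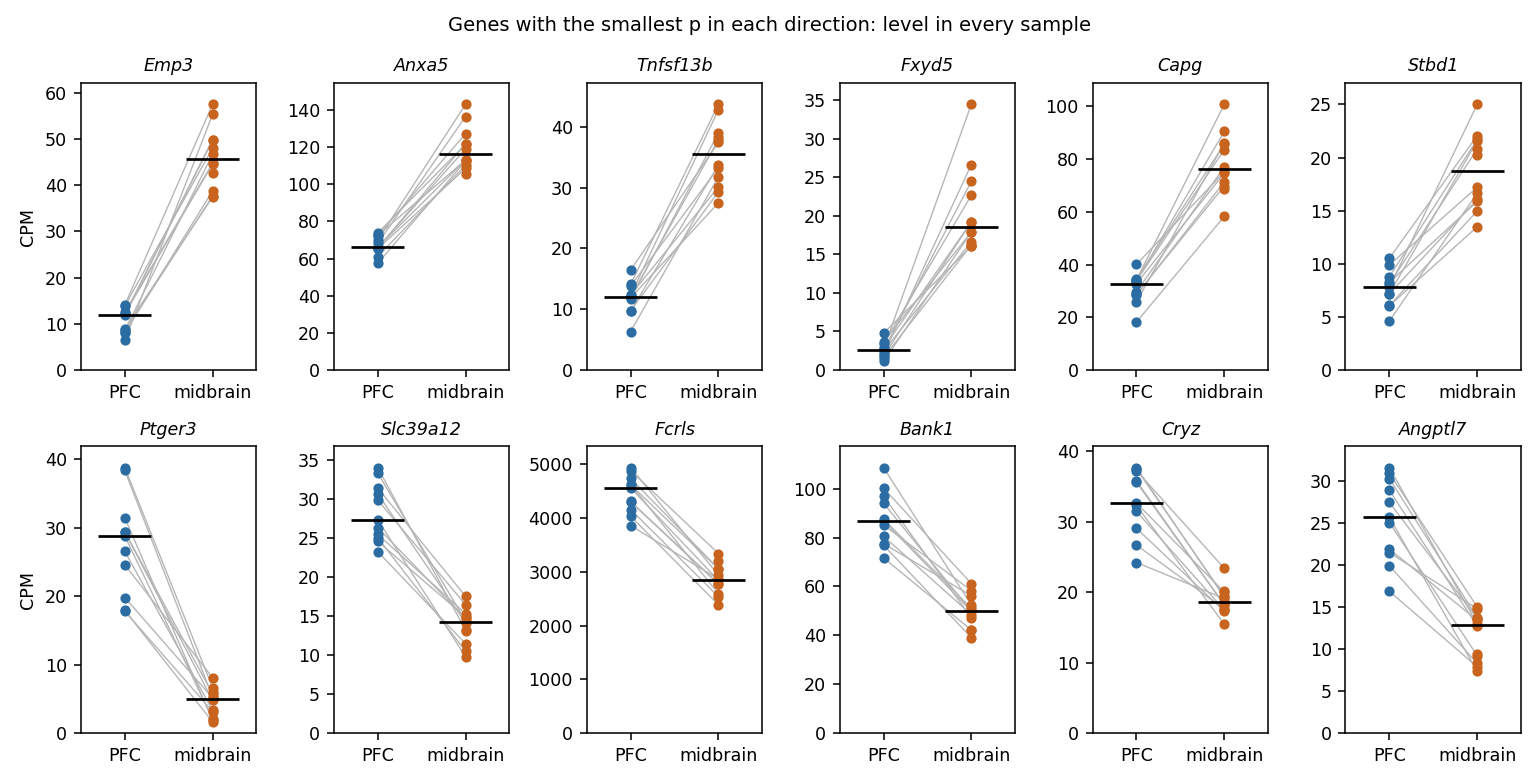
CPM of 12 genes in every PFC sample (blue, n = 11) and midbrain sample (orange, n = 12), with grey lines joining samples of the same mouse and black bars at the medians; the genes are those with the smallest p in each direction among genes with a mean of at least 8 CPM. In each panel the 2 regions do not overlap; for Anxa5, PFC samples lie between 57.5 and 73.7 CPM and midbrain samples between 106 and 143 CPM.

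Among called genes that averaged 8 CPM or more and moved the same way in all 11 mice, the largest negative log2 fold changes were those of H2-Eb1 and H2-Aa, which belong to MHC class II, the molecules that present peptides to CD4+ T cells. Of 11 genes listed, 10 were in the table. Of these, 6 (60%, against 3.64% over all genes) were called higher in the midbrain and 0 higher in the PFC. The median log2 fold change of the 10 was -1.15. All 10 had a lower value in the PFC. Called genes were the chains H2-Eb1, H2-Aa and H2-Ab1 and the invariant chain Cd74, which guides them through the cell. The others were H2-DMa, of the complex that edits the bound peptide, and H2-Ob. H2-Eb1 (ENSMUSG00000060586, chromosome 17 of GRCm38, 34305867 to 34316674) measured 0.438 to 5.64 CPM in the PFC (median 2.07) and 4.97 to 389 CPM in the midbrain (median 18.2), a log2 fold change of -4.29 (SE 0.74, adjusted p = 1.75e-04). H2-Aa ran from 0.292 to 12.5 CPM in the PFC (median 2.67) and from 5.51 to 583 CPM in the midbrain (median 28.8; log2 fold change -4.11, adjusted p = 4.66e-04). In the fit on the PFC and midbrain samples of the 11 mice alone, with the mouse as a block, H2-Aa had -2.85 and lost its call (adjusted p = 0.0632). Cd74 was 15 to 71.6 CPM in the PFC and 79.8 to 1498 CPM in the midbrain (log2 fold change -2.83, adjusted p = 1.70e-04), and of the 6 called genes it was the one whose groups did not overlap.

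The highest value of H2-Eb1, H2-Aa, H2-Ab1 and Cd74 was in each case the midbrain of mouse 6, followed by that of mouse 11. Mouse 6 had 1187 CPM of H2-Ab1 where the midbrain median was 85.1. Without mouse 6 the log2 fold changes were -2.87 for H2-Eb1, -2.70 for H2-Aa, -2.07 for H2-Ab1 and -1.97 for Cd74, against -4.29, -4.11, -3.06 and -2.83 with it, and all 4 stayed under an adjusted p of 0.05 (highest 0.00187). The median of the 10 genes in the table was -0.58 without mouse 6 and -0.63 with the mouse as a block, against -1.15. All 11 mice with both samples had more of each in the midbrain. The same midbrain sample of mouse 6 held 97.9 CPM of Ms4a7, a border macrophage marker, against at most 4.79 CPM in the other midbrain samples, and 352 CPM of Igkc, an antibody light chain whose reads can be shared with related genes, against at most 71.4. Igkc was called (adjusted p = 0.00203, and 0.0367 without mouse 6) but not in the fit with the mouse as a block (adjusted p = 0.241). Its border macrophage sum was 219 CPM, with 76 to 125 CPM in the others. The part of these cells' transcripts in the MHC class II difference was not tested, and the call without mouse 6 is given above. The ranges of H2-DMa were narrower. H2-DMa was 272 to 415 CPM in the PFC and 333 to 539 CPM in the midbrain (log2 fold change -0.37, SE 0.07, adjusted p = 3.74e-04, and -0.38 without mouse 6). Ciita, the master activator of MHC class II transcription, had a log2 fold change of -1.92 with an adjusted p of 0.198.

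**Figure D3:**
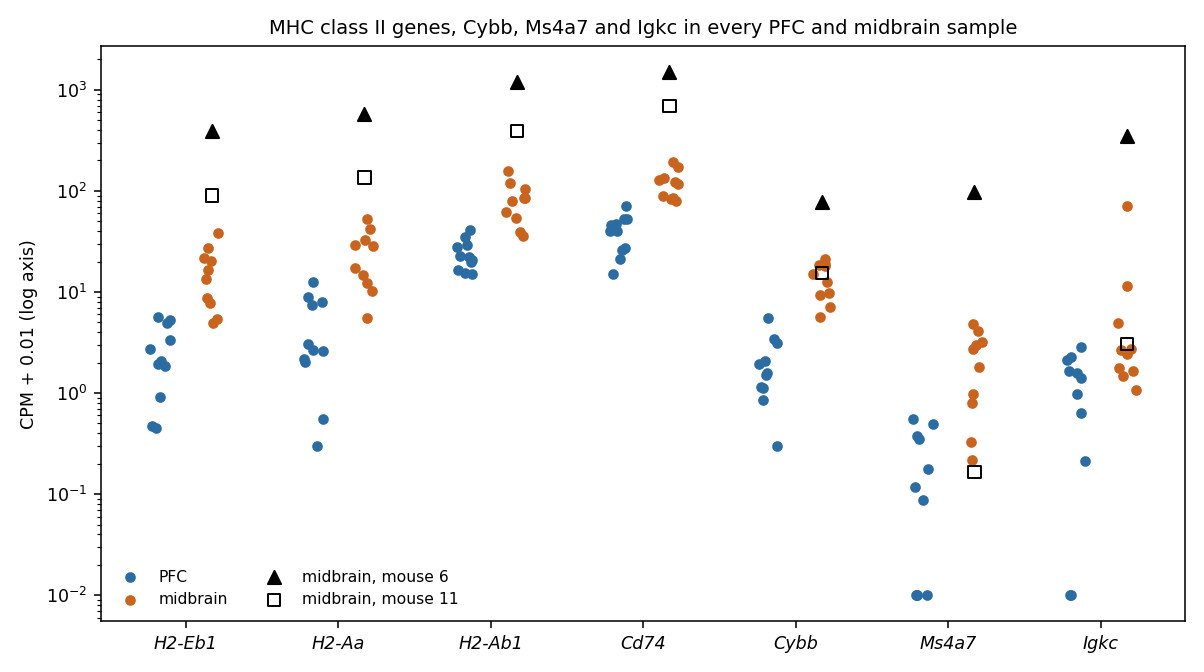
CPM + 0.01 on a log axis in every PFC sample (blue, n = 11) and midbrain sample (orange, n = 12), with the midbrain of mouse 6 as a black triangle and that of mouse 11 as an open square; points at 0.01 are samples with 0 CPM. Mouse 6 is the highest midbrain sample for all 7 genes, and for H2-Eb1, H2-Aa, H2-Ab1 and Cd74 the remaining midbrain samples still sit mostly above the PFC samples.

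Since the MHC class II genes moved together, the 250 bases before the RefSeq start site (GRCm38.p6) of the called members found in the promoter table are shown, 5′ to 3′ on the strand of the gene. Capitals mark CCAAT or its reverse complement ATTGG, the core of the Y box, a motif known from MHC class II promoters. H2-Eb1 lies at chr17:34305617-34305866 on the plus strand, H2-Aa at chr17:34287824-34288073 on the minus strand, H2-Ob at chr17:34238655-34238904 on the plus strand and H2-DMa at chr17:34122582-34122831 on the plus strand.
H2-Eb1: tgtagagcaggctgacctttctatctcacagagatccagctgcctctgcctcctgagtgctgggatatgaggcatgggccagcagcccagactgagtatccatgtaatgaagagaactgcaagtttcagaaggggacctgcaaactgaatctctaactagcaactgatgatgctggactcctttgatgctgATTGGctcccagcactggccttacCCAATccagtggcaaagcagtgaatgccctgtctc
H2-Aa: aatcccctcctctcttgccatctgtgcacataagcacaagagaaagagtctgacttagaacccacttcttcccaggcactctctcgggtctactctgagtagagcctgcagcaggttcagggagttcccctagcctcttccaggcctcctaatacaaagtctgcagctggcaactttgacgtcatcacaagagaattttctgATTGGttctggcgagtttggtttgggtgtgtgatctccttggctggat
H2-Ob: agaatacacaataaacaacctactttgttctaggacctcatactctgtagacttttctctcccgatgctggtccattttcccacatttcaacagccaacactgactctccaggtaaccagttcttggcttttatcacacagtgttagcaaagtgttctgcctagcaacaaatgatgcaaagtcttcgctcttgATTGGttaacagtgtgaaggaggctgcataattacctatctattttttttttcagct
H2-DMa: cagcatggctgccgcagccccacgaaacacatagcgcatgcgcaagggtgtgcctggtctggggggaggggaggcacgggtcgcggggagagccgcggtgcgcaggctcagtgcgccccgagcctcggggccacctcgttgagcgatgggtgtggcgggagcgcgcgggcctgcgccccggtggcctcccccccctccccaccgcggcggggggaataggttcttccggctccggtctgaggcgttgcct
The Y-box core began 59 and 35 bases before the start of H2-Eb1, 48 bases before that of H2-Aa and 57 bases before that of H2-Ob. The window of H2-DMa had no match. Other start sites of these genes were not examined, so this does not show that H2-DMa lacks the motif. Among all 32851 promoters of the table, 33.8% held the core in the same window on either strand, so a match by itself is common. The core of the interferon-stimulated response element, GAAANNGAA on either strand, was in 7.13% of all promoters and in none of these 4, nor in those of Sp100 and Slfn2, the called interferon genes with the smallest p that the table holds. These matches describe letters only.

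Several MHC class I genes, which present peptides from inside the cell, were also higher in the midbrain. Of 15 genes, 7 (46.7%, against 3.64% over all genes) were called higher in the midbrain and 0 in the PFC. The median log2 fold change was -0.31. H2-D1 measured 740.5 to 1262 CPM in the PFC and 1062 to 3358 CPM in the midbrain (log2 fold change -0.74, adjusted p = 2.18e-04), higher in the midbrain in all 11 mice. H2-K1 changed by -0.47, Tap1, a subunit of the peptide transporter, by -0.38 and Nlrc5, the transcriptional activator of these genes, by -1.36 on the log2 scale. H2-M3, B2m and H2-T23 were the other called genes, and their calls were less firm: H2-M3 lost its call without mouse 11 (adjusted p = 0.0506), B2m in 7 and H2-T23 in 9 of 12 fits with a mouse left out (highest adjusted p = 0.106 and 0.105). H2-D1 and H2-K1 are near-identical in parts, and so are H2-Q6 and H2-Q7, and reads can be split between them. Without mouse 6, 5 of the 7 stayed called, and with the mean log2 level of neuronal markers added to the fit 2 did, H2-D1 and H2-K1.

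Interferon-stimulated genes shared that direction: all 35 listed genes had a lower value in the PFC, with a median log2 fold change of -0.85. Called were 9 of them (25.7%, against 3.64% over all genes). Mice 1 to 6 alone gave 5 calls and a median of -1.10, and mice 7 to 12 alone gave 2 calls and a median of -0.50. Ifi204, a sensor of DNA, measured 1.01 to 8.33 CPM in the PFC (median 2.69) and 5.07 to 26.2 CPM in the midbrain (median 11.3), a log2 fold change of -1.93 (SE 0.34, adjusted p = 1.57e-04). Ifi27l2a had medians of 4.67 and 16.9 CPM (log2 fold change -1.68) and Sp100, a nuclear body protein, medians of 11.3 and 23.1 CPM (-0.93). Irf7, the factor that amplifies the response, changed by -1.03 with an adjusted p of 0.0492, close to the threshold, and the call was lost in 9 of 12 fits with a mouse left out (highest adjusted p = 0.111). The groups overlapped for each of these genes, yet all 11 mice had more Ifi204, Ifi27l2a, Sp100 and Irf7 in the midbrain. In a paired fit, with the mouse as a replicate block in place of sex, 18 of the 35 genes were called, among them Rsad2, Ifit1, Ifit2 and Usp18. All 18 were higher in the midbrain, and over all genes that fit called 932 of 21236 higher in the midbrain. Cxcl10 was not called (log2 fold change -0.48, adjusted p = 0.378).

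Genes of the disease-associated state were called in 13 of 27 cases (48.1%, against 3.64% over all genes), all higher in the midbrain. The median log2 fold change was -0.28. Spp1, the secreted phosphoprotein osteopontin (ENSMUSG00000029304, chromosome 5 of GRCm38, 104435118 to 104441050), measured 0.232 to 12.5 CPM in the PFC (median 5.92) and 17.3 to 142 CPM in the midbrain (median 47.1), without overlap (log2 fold change -3.51, SE 0.46, adjusted p = 2.60e-06). Clec7a, the beta-glucan receptor dectin-1, had 1.65 to 8.12 CPM in the PFC and 18.1 to 47.3 CPM in the midbrain (log2 fold change -2.37, adjusted p = 5.37e-10). Lpl, lipoprotein lipase, had 1.36 to 8.1 and 19.5 to 40.8 CPM (-2.43, adjusted p = 5.91e-09). Neither gene had overlapping groups. Lgals3, the lectin galectin-3, was also separated, with medians of 2.15 and 13.8 CPM (log2 fold change -2.34, adjusted p = 7.34e-10). Itgax, the integrin CD11c, changed by -1.66 and Gpnmb by -4.00 on the log2 scale, the latter from a median of 0 CPM in the PFC and 1.11 CPM in the midbrain.

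The same list was not uniform. Apoe, the lipid carrier, ran from 81.7 to 529 CPM in the PFC and from 201 to 2257 CPM in the midbrain, was higher in the midbrain in 8 of 11 mice, and was called only narrowly (log2 fold change -1.15, adjusted p = 0.0445). The paired fit did not call it (adjusted p = 0.0839), and the call was lost in 7 of 12 fits with a mouse left out (highest adjusted p = 0.155). Trem2, the lipid receptor that drives this state, and its adaptor Tyrobp differed by -0.064 and -0.069 on the log2 scale (adjusted p = 0.705 and 0.837). Cst7, Cd63, Ctsb and Ctsd were not called either, with log2 fold changes of -0.15, -0.0063, -0.0097 and -0.048. Of the TAM family, receptors for dying cells and their bridging ligands, Axl was 5.29 to 24.9 CPM in the PFC and 24.9 to 92.1 CPM in the midbrain (log2 fold change -2.36, SE 0.27, adjusted p = 1.49e-07), without overlap, although the highest PFC and lowest midbrain values were close. Mertk, its homeostatic relative, had a log2 fold change of 0.10 (adjusted p = 0.475). The ligands went in opposite directions, with Pros1 lower in the PFC (-0.34, adjusted p = 0.00251) and Gas6 higher in the PFC (0.29, adjusted p = 5.30e-04).

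**Figure D4:**
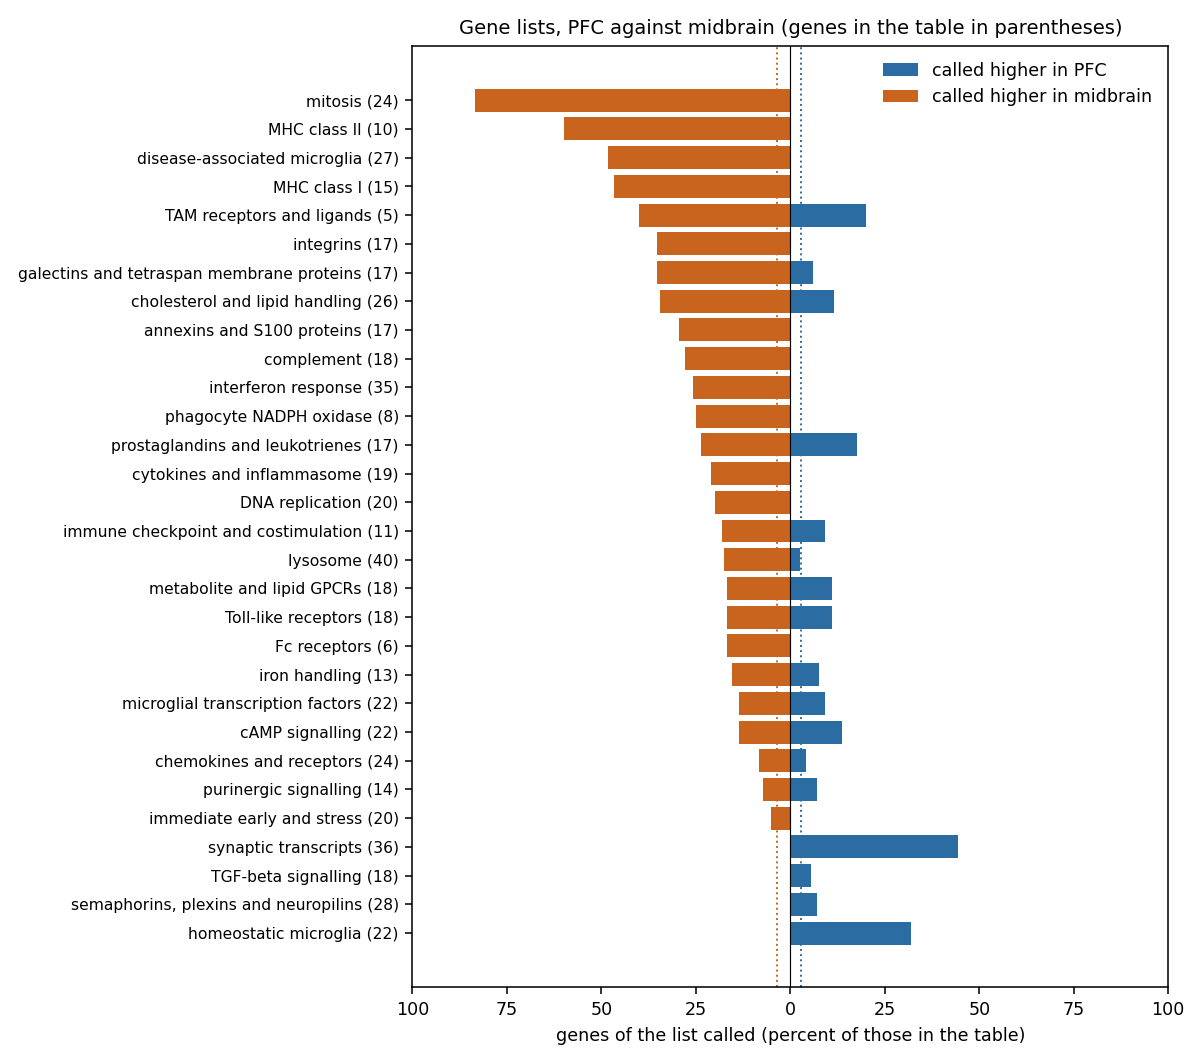
Bars give the share of each functional gene list that was called higher in the midbrain (orange, to the left) or higher in the PFC (blue, to the right), as a percent of the genes of that list in the table, whose number stands in parentheses; dotted lines mark the shares over all genes, 3.64% and 2.88%. The mitosis list reaches furthest to the left, with 20 of 24 genes, and synaptic transcripts, with 16 of 36, reach furthest to the right. All lists were chosen with earlier results of these samples known.

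Among the 30 functional lists, which were chosen with earlier results of these samples known, that of mitosis had the highest share of calls. Of 24 genes, 20 (83.3%, against 3.64% over all genes) were called higher in the midbrain and 0 higher in the PFC. The median log2 fold change was -1.88. Levels were low in both regions: summed over the list they came to 30.1 to 52.4 CPM in the PFC (median 37.9) and 49.8 to 119 CPM in the midbrain (median 92.6). Top2a, the topoisomerase that untangles replicated chromosomes, measured 0.0215 to 3.45 CPM in the PFC and 1.71 to 8.68 CPM in the midbrain (log2 fold change -2.31, adjusted p = 1.67e-05). Cdk1, the kinase that starts mitosis, had medians of 2.86 and 6.87 CPM (-1.35, SE 0.15, adjusted p = 2.54e-08). Birc5, Ube2c, Cdc20 and Aurkb, which act in chromosome segregation, had no overlap between the groups, with log2 fold changes from -2.43 for Birc5 to -1.72 for Aurkb. Mki67 was near the floor of 3 counts, with a median of 0.0835 CPM in the PFC and 0.431 CPM in the midbrain. The lowest summed midbrain levels were those of mice 12 and 5, and with the neuronal marker index as a covariate 13 of the 24 genes were called, with a median log2 fold change of -1.79. The paired fit on the PFC and midbrain samples alone called 764 of all 21236 genes higher in the midbrain. The mitosis list had a median log2 fold change of -2.01 in that fit, and 15 of its 24 genes were called. Mki67 was not among them (adjusted p = 0.0545). Mice 1 to 6 alone gave 10 calls and mice 7 to 12 alone gave 13, all higher in the midbrain.

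Of 20 DNA replication genes, 4 were called (20%, against 3.64% over all genes), all higher in the midbrain. The median log2 fold change was -0.23. Rrm2, the regulated subunit of ribonucleotide reductase, was at 0 to 2.16 CPM in the PFC and 2.76 to 6.97 CPM in the midbrain (log2 fold change -2.74, adjusted p = 3.36e-04). Mcm5 and Mcm6, of the replicative helicase, and Prim1, of the primase, were the others, with -0.70, -0.28 and -0.79, and Mcm6 lost its call in 4 of 12 fits with a mouse left out (highest adjusted p = 0.0721). Pcna, the sliding clamp, was not called (-0.092, adjusted p = 0.728), and neither were Mcm3 and Mcm4.

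**Figure D5:**
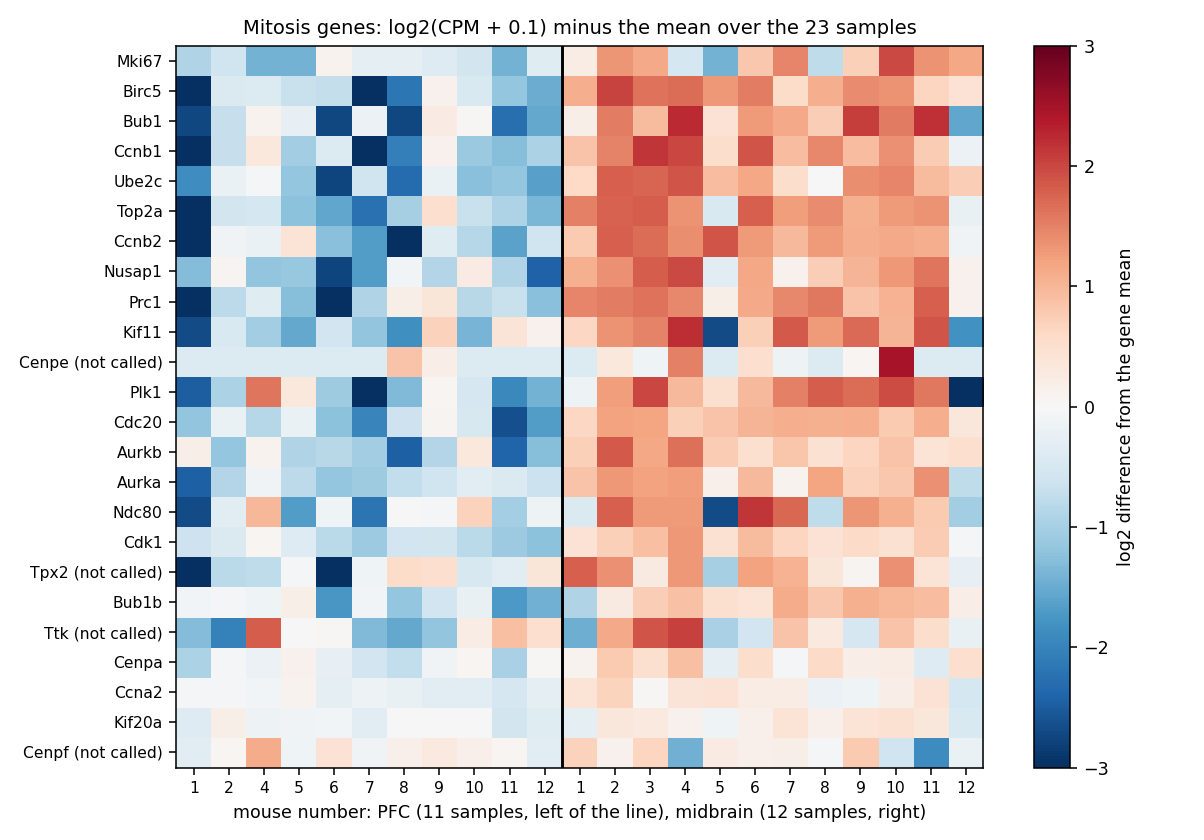
Rows are the 24 mitosis genes and columns the 23 samples, named by mouse number, with PFC left and midbrain right of the line; the colour is log2(CPM + 0.1) minus the mean of that gene over the samples, red above and blue below. Midbrain columns are mostly red and PFC columns mostly blue, with paler midbrain columns in mice 5 and 12; Cenpe, Tpx2, Ttk and Cenpf were not called.

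The called phagocyte effector genes were higher in the midbrain, at 25% of the NADPH oxidase list, 27.8% of the complement list and 16.7% of the Fc receptor list against 3.64% over all genes. Of 8 genes of the phagocyte NADPH oxidase, which makes superoxide, Cybb and Ncf4 were called, both higher in the midbrain. Cybb, the catalytic subunit, was 0.291 to 5.57 CPM in the PFC and 5.62 to 77.9 CPM in the midbrain (log2 fold change -3.21, SE 0.44, adjusted p = 4.20e-06, and -2.73 without mouse 6, its highest sample). Ncf4 changed by -0.23, and the partner subunit Cyba by -0.0035 (adjusted p = 0.994). Among 18 complement genes 5 were called, all higher in the midbrain, of which C4b had medians of 0.62 and 9.18 CPM (log2 fold change -3.25, adjusted p = 6.57e-04). C1qa, C1qb and C1qc, the subunits of C1q that tag synapses and debris, were not called, at -0.081, -0.094 and -0.014. Of 6 Fc receptors only Fcgr4, which binds IgG2 antibodies, was called, with medians of 11 and 19.6 CPM (log2 fold change -0.88, adjusted p = 1.40e-05).

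Lysosomal genes were called in 7 of 40 cases higher in the midbrain (17.5%, against 3.64% over all genes) and in 1 higher in the PFC. The median log2 fold change was -0.067. The 7 included 4 of the cysteine cathepsins. Ctsc, which activates other proteases, was 795 to 1064 CPM in the PFC and 1047 to 1651 CPM in the midbrain (log2 fold change -0.59, SE 0.061, adjusted p = 1.07e-08), and Ctss, which trims the invariant chain before peptide loading, was 9712 to 13099.8 and 12090.5 to 16058 CPM (-0.32, adjusted p = 1.80e-05). Ctsh and Ctsl changed by -0.37 and -0.29. Ctsa was the gene higher in the PFC (0.18, adjusted p = 0.0334), and it lost the call in 8 of 12 fits with a mouse left out (highest adjusted p = 0.0905).

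Called adhesion genes were mostly higher in the midbrain. Of 17 annexins and S100 proteins 5 were called, of 17 galectins and tetraspan proteins 6, and of 17 integrins 6, all higher in the midbrain. These were 29.4%, 35.3% and 35.3% of the lists, against 3.64% over all genes. Tspan3 (0.21) was the single gene of these lists called higher in the PFC. As these lists, like the others, were chosen with earlier results of these samples known, their counts are not independent evidence of a direction. With the neuronal marker index as a covariate, 2 integrin genes were called, and the median log2 fold change of the list was -0.45, against -0.25 without it. Itgb2, the beta chain of leukocyte integrins, measured 482 to 644 CPM in the PFC and 586 to 869.8 CPM in the midbrain (log2 fold change -0.30, adjusted p = 3.02e-04), whereas its partner Itgam had a log2 fold change of -1.0e-05 (adjusted p = 1.0). Itga6 and Itgb3 changed by -0.34 and -0.40. Cd81, a tetraspanin, changed by -0.28 with an adjusted p of 1.69e-04.

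Inflammatory mediators were called in 12.5% of the chemokine list and 21.1% of the cytokine list, against 6.52% over all genes. Of 24 chemokines and their receptors, Ccl12 (-0.72, adjusted p = 0.00122) and Ccl6 (-0.36, adjusted p = 0.0375, up to 0.0887 with a mouse left out) were higher in the midbrain, and Ccr2, the receptor that brings monocytes to tissue, was higher in the PFC at low levels, with 0.988 to 6.66 CPM against 0.334 to 2.36 (log2 fold change 1.59, adjusted p = 2.38e-04). Among 19 cytokine and inflammasome genes 4 were called higher in the midbrain, Il1rn, the antagonist of interleukin 1 (-2.58), Il6 (-0.69), the inflammasome protease Casp1 (-0.29) and Nlrc4. Il6 lost its call without mouse 8 (adjusted p = 0.0526), and Nlrc4, with medians of 0 CPM in both regions, lost it without mouse 6 (adjusted p = 0.164) and with the mouse as a block (adjusted p = 0.173). Il1b and Tnf were not called (-0.82 and -0.32, adjusted p = 0.191 and 0.435). Cd14, the co-receptor for endotoxin, was higher in the midbrain, with 605 to 1111 and 885 to 1840.3 CPM (-0.62, adjusted p = 1.03e-04), and so was Tlr1 (-0.39), while Tlr5 (0.50) and Tlr12 (0.45) were higher in the PFC. Of 20 immediate early and stress genes, which rise when cells are dissociated, only Klf6 was called (log2 fold change -0.51, adjusted p = 0.00251), and Fos, Jun and Egr1 had -0.19, 0.046 and -0.13. The Klf6 call made up 5% of the list, against 6.52% over all genes. In the paired fit, which called 1712 of all 21236 genes, 9 of the chemokine genes were called, 7 higher in the midbrain and 2 in the PFC.

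The called homeostatic genes were all higher in the PFC. Of 22, 7 (31.8%, against 2.88% over all genes) were called higher in the PFC and 0 higher in the midbrain. The median log2 fold change was 0.11. Fcrls, a Fc receptor-like scavenger receptor that marks resident microglia (ENSMUSG00000015852, chromosome 3 of GRCm38, 87250758 to 87263738), measured 3858 to 4935 CPM in the PFC (median 4558) and 2387 to 3339 CPM in the midbrain (median 2852), without overlap (log2 fold change 0.63, SE 0.058, adjusted p = 5.42e-10). Crybb1, a crystallin found in mature microglia, was 329 to 578 and 212 to 357 CPM (0.55, adjusted p = 1.21e-04). Ecscr, P2ry12, Siglech, Slc2a5 and Sall1 followed with 0.44, 0.29, 0.25, 0.24 and 0.24. P2ry12, the ADP receptor that steers microglial processes, was 6397 to 9405 CPM in the PFC and 5481 to 7999.9 CPM in the midbrain, so its groups overlapped, but it was higher in the PFC in 11 of 11 mice. Sall1, the transcription factor of microglial identity, was called narrowly (adjusted p = 0.036) and not in 8 of 12 fits with a mouse left out (highest adjusted p = 0.114). Tmem119, which controls the Cre recombinase that switches on the sorting label, differed by 0.11 (adjusted p = 0.262), Cx3cr1 by 0.11 and Csf1r by 0.14.

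Ptger3 had the largest positive log2 fold change among called genes that averaged 8 CPM or more and moved the same way in all 11 mice. It encodes the EP3 receptor for prostaglandin E2, which lowers cAMP (ENSMUSG00000040016, chromosome 3 of GRCm38, 157566892 to 157645888). Its levels were 17.8 to 38.8 CPM in the PFC (median 28.8) and 1.65 to 8.1 CPM in the midbrain (median 4.98), without overlap (log2 fold change 2.61, adjusted p = 2.05e-10). Ptger4, the EP4 receptor for the same ligand, which raises cAMP, went in the opposite direction, with 3.53 to 15.3 CPM in the PFC and 9.1 to 43.1 CPM in the midbrain (log2 fold change -1.45, SE 0.22, adjusted p = 1.87e-05). In all 11 mice Ptger3 was higher in the PFC and Ptger4 higher in the midbrain. Of 17 genes of prostaglandins and leukotrienes, 41.2% were called in either direction, against 6.52% over all genes. Hpgds and Ltc4s were also higher in the PFC (0.20 and 0.38). Alox5, Hpgd, which inactivates prostaglandins, and Pla2g4a, which frees arachidonic acid, were higher in the midbrain (-0.50, -0.35 and -0.32). Hpgds lost its call in 8 and Hpgd in 3 of 12 fits with a mouse left out (highest adjusted p = 0.107 and 0.0588). Of the cyclooxygenases, Ptgs1 had -0.028 and Ptgs2 -0.87, neither called (adjusted p = 0.779 and 0.178). Gnas, the stimulatory G protein of the cAMP pathway, was higher in the midbrain, at 221 to 367 and 355 to 462 CPM (-0.52, adjusted p = 1.75e-05).

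Other G protein-coupled receptors were split between the regions. Hcar2, the receptor for niacin and ketone bodies, was 6.82 to 36.1 CPM in the PFC and 40.3 to 105 CPM in the midbrain, without overlap (log2 fold change -1.96, adjusted p = 1.14e-06), and Adora1, an adenosine receptor, changed by -1.02. S1pr1, the sphingosine 1-phosphate receptor, was higher in the PFC, at 140.1 to 197 against 64.6 to 141 CPM (0.69, adjusted p = 1.18e-06). The checkpoint receptors were split likewise, since Lag3 was higher in the PFC (0.62, adjusted p = 0.00154) while Pdcd1, above, was higher in the midbrain. Cd274, the ligand PD-L1, was -0.45 (adjusted p = 0.0459), and this call was lost in 8 of 12 fits with a mouse left out (highest adjusted p = 0.109).

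Lipid and iron genes were called in both directions. Srebf2, a transcription factor that switches on cholesterol synthesis, measured 15.3 to 28.6 CPM in the PFC and 23.3 to 36.1 CPM in the midbrain (log2 fold change -0.43, SE 0.099, adjusted p = 0.00367), and its groups overlapped. Cyp51, an enzyme of that synthesis, and Insig1, which restrains it, were also higher in the midbrain (-0.46 and -0.69), although Insig1 lost its call in 6 of 12 fits with a mouse left out (highest adjusted p = 0.0848). Abca1 and Abcg1, which export cholesterol, were higher in the PFC, the former at 131 to 198 against 96.5 to 149 CPM (0.52, adjusted p = 4.03e-05) and the latter by 0.54 (adjusted p = 1.24e-05). In all, 9 of 26 genes of this list were called higher in the midbrain and 3 higher in the PFC. Together these were 46.2% of the list, against 6.52% over all genes. Slc40a1, ferroportin, the only known iron exporter, was 293 to 447 CPM in the PFC and 171 to 275 CPM in the midbrain, without overlap (0.59, adjusted p = 1.21e-06). The ferritin heavy chain Fth1 and the phagosomal transporter Slc11a1 were higher in the midbrain (-0.28 and -0.31), and the ferritin light chain Ftl1 was not called (-0.0008, adjusted p = 0.999).

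Other genes named on the PFC side, for a small p, a large fold or membership of a list, had varied roles. Slc39a12, a zinc importer, was 23.2 to 34 CPM in the PFC and 9.79 to 17.5 CPM in the midbrain (log2 fold change 1.03, SE 0.094, adjusted p = 5.37e-10). Bank1, a scaffold of immune receptor signalling, was 71.7 to 109 and 39.1 to 61.2 CPM (0.82, adjusted p = 1.83e-09), and Cryz, a quinone reductase, 24.2 to 37.7 and 15.5 to 23.4 CPM (0.80, adjusted p = 4.38e-09). Angptl7, an angiopoietin-like secreted protein, changed by 1.13 (adjusted p = 1.41e-08). None of these 4 genes had overlapping groups. Sema6d, a transmembrane guidance molecule, had medians of 11.7 and 4.6 CPM (log2 fold change 1.25, adjusted p = 1.70e-05), and Sema4b medians of 24.7 and 13.3 CPM (0.89, adjusted p = 2.11e-06). These were the 2 genes called among 28 semaphorins, plexins and neuropilins, 7.14% of the list and near the 6.52% over all genes. Dusp27, Tmem44, Ccdc162 and Khdrbs3 were higher in the PFC in all 11 mice, with log2 fold changes of 1.14, 1.03, 0.90 and 0.85 and overlapping ranges. Gpm6b and Osgin1 also rose in all 11 (0.84 and 0.86), but lost the call once the level of neuronal markers was added to the fit (adjusted p = 0.394 and 0.447).

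The called regulators of microglial identity went in both directions. Of 22 transcription factors 5 were called, 22.7% against 6.52% over all genes. Sall1 and Maf (0.36, adjusted p = 0.0224) were higher in the PFC, and Bhlhe40 (-1.47), Batf3 (-0.36) and Irf8 (-0.15) higher in the midbrain. Bhlhe40 lost its call without mouse 2 (adjusted p = 0.0526), and Maf lost it in 3 and Irf8 in 5 of 12 fits with a mouse left out (highest adjusted p = 0.0721 and 0.105). Spi1, which encodes PU.1, had 0.049 and was not called (adjusted p = 0.784). Of 18 TGF-beta genes, 1 was called (5.56%, near the 6.52% over all genes), Ltbp1, at a median of 0.349 CPM in the PFC. That call was lost without mouse 8 (adjusted p = 0.0994) and with the mouse as a block (adjusted p = 0.0567). Tgfb1, Tgfbr1 and Smad3 were not called, with 0.14, 0.02 and 0.057.

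Neuronal and synaptic transcripts were present at low levels, and most of those called were higher in the PFC. Of 36 synaptic genes in the table, 16 (44.4%, against 2.88% over all genes) were called higher in the PFC and 0 higher in the midbrain. The median log2 fold change was 1.32. Slc17a7, the vesicular glutamate transporter of cortical neurons, had 0.93 to 4.34 CPM in the PFC and 0 to 0.342 CPM in the midbrain, and the counts summed over the samples gave a ratio of 42.2 (exact binomial 95% interval 28.7 to 65, counting error only). The midbrain of mouse 3 held 16 of the 26 midbrain counts, and without that library the ratio was 100.8 (54.6 to 211). Outside that list, Nrgn, a postsynaptic calmodulin-binding protein, was 1.3 to 5.12 CPM in the PFC and 0 to 0.535 CPM in the midbrain (log2 fold change 3.41, adjusted p = 1.72e-08), and Hpcal4, a neuronal calcium sensor, 2.94 to 11.2 and 0 to 1.22 CPM (3.52, adjusted p = 1.07e-08). Camk2a had medians of 5.71 and 1.94 CPM, Snap25 medians of 6.45 and 2.45 CPM. Of 12 forebrain neuron genes 8 (66.7%, against 2.88% over all genes) were called higher in the PFC. Of 6 midbrain neuron genes in the table Aldh1a1 was called higher in the midbrain (-1.54, adjusted p = 0.0196, and 0.0511 without mouse 10), whereas Th, the enzyme of dopamine synthesis, was not (-1.87, adjusted p = 0.425). With the level of neuronal markers added to the fit, 5 genes of the synaptic list were called, and over all genes 804 were called. Snap25 and Syt1 are in both the neuronal marker list and the synaptic list. The mean log2 level of the neuronal markers was itself higher in the PFC by 0.70 (exact sign-flip test, adjusted p = 0.0228, n = 11). The covariate therefore also takes up part of the regional difference, and this fit cannot separate neuronal RNA from region. Within mice 1 to 6 the median of the synaptic list was 1.11 and within mice 7 to 12 it was 1.66. The part of neuronal RNA in each gene higher in the PFC was not tested.

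Other cell types were compared by the summed CPM of their markers within mice, with a two-sided exact sign-flip permutation test over the 11 pairs, adjusted over 14 lists (smallest possible p = 9.77e-04). The microglial sum was higher in the PFC in 11 of 11 mice, by 0.10 ± 0.069 on the log2 scale (SD, n = 11, exact adjusted p = 0.00684). Its 4 called members, Fcrls, P2ry12, Siglech and Sall1, are among the homeostatic genes described above, so this sum is not a separate result. The astrocyte sum was higher in 10 of 11 mice, by 0.54 ± 0.38 (n = 11, exact adjusted p = 0.00911), and the called members were the glutamate transporters Slc1a3, at 206 to 287 against 155 to 201 CPM, and Slc1a2. The mean log2 CPM of the astrocyte list did not show this (-0.013). Gfap and Aqp4, defining astrocyte markers, had log2 fold changes of -0.66 and 0.0086 (adjusted p = 0.36 and 0.998). The forebrain neuron sum differed by 2.37 ± 0.61 (exact adjusted p = 0.00684, n = 11), higher in the PFC in every mouse. For the oligodendrocyte sum the values were 231 to 538 CPM in the PFC and 305 to 519 CPM in the midbrain, and the test missed the threshold (log2 ratio -0.28 ± 0.39, n = 11, exact adjusted p = 0.142), with Mbp, myelin basic protein, the one member called (-0.67, adjusted p = 0.0222, lost without mouse 6 and in 4 other such fits). The endothelial, mural, dendritic, lymphocyte and monocyte sums and those of oligodendrocyte precursors, neurons, ependyma and midbrain neurons also missed it, with exact adjusted p from 0.142 to 0.649. The border macrophage sum had an exact adjusted p of 0.724, and without mouse 6 it was higher in the PFC (0.21 ± 0.19, n = 10, exact adjusted p = 0.0205). The mural cell sum also passed the threshold without mouse 6, at 1.0 ± 0.95 (n = 10, exact adjusted p = 0.0383). Mrc1, a border macrophage receptor, was 2.89 to 7.88 CPM in the PFC and 0.86 to 16.4 CPM in the midbrain, where mouse 6 was again the highest.

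The largest fitted folds of all belonged to genes with few or 0 counts in a region. Prss56, a serine protease, had counts in 9 of 11 PFC samples and in 0 of 12 midbrain samples, at least 63.2-fold higher in the PFC against a floor of 3 counts per midbrain library (median 2.25 CPM, highest 13.9). Npy, neuropeptide Y, had counts in the same 9 PFC samples, up to 26.6 CPM, and in 4 midbrain samples, up to 0.192 CPM (ratio 249, exact binomial 95% interval 161 to 408). The midbrain of mouse 3 held 9 of the 20 midbrain counts of Npy, and the ratio was 415 (232 to 832) without it. Aqp1, a water channel, was found in 9 PFC samples, up to 2.14 CPM, with 1 count in the whole midbrain (ratio 318, exact binomial 95% interval 56.7 to 12612). Chrdl1, a secreted inhibitor of bone morphogenetic proteins, had 421 counts in 10 PFC samples and 5 in 1 midbrain sample (ratio 90.8, exact binomial 95% interval 38.6 to 281). Without the 1 midbrain library that held counts (mouse 6 for Aqp1 and mouse 4 for Chrdl1), the bounds against the same floor were at least 8.54-fold and at least 12.5-fold. The PFC of mice 1 and 2 held 0 counts of Prss56, Npy and Aqp1. Gdf3, a growth factor of the TGF-beta family, had counts in 7 of 12 midbrain samples and 0 of 11 PFC samples, at least 16.4-fold higher in the midbrain, with 7.76 CPM in mouse 6. That library held 357 of the 571 counts, and without it the bound was at least 6.67-fold. Jchain, which joins antibody chains, reached 42.1 CPM in the midbrain of mouse 6, which held 1936 of the 2226 midbrain counts, and in the paired fit on the PFC and midbrain samples of the 11 mice its call was lost (adjusted p = 0.0679). Ttr, made by the choroid plexus, had counts in 3 midbrain samples, was called (adjusted p = 0.0402), and lost the call in 9 of 12 fits with a mouse left out (highest adjusted p = 0.173) and with the mouse as a block (adjusted p = 0.156). Fitted folds of such genes depend on the prior count and are not given.

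Striatum samples were fitted in the same model. For 34 of the 36 genes with the smallest p or the largest folds between PFC and midbrain, the striatum mean fell between the PFC mean and the midbrain mean, and these genes were chosen for that gap. Some lists had a striatum level outside both regions: the median summed CPM of the interferon list was 759 in the striatum, 782 in the PFC and 1066 in the midbrain, and that of the cytokine and inflammasome list was 3317, 4201 and 4813. The median level of Ptger3 was 28.8 CPM in the PFC, 13 in the striatum and 4.98 in the midbrain, and that of Emp3 was 11.8, 20.5 and 45.7 CPM. Gpr65 and Capg in the striatum were near the PFC, at 9.08 and 36 CPM against 7.65 and 32.7 in the PFC and 29.7 and 76.1 in the midbrain. Naalad2 was nearer the midbrain, at 47.1 CPM against 22.1 and 61.2. These comparisons share samples, so they are given side by side only.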

How the data were processed

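Microglia sorted as tdTomato-positive cells from the PFC, midbrain and striatum of 12 mice were measured by RNA-seq, and samples were grouped by the brain region and sex of their labels. Per the study's methods, adapters were removed with Trimmomatic, quality was checked with FastQC and paired reads were aligned to Ensembl GRCm38 with HISAT2. The authors deposited raw counts per gene for each sample. The counting tool, annotation release and strand setting are not given in the sources used here, so genes that overlap on opposite strands cannot be told apart. Of the 21236 genes in the table, 12857 had a mean of at least 1 CPM in 1 of the 6 groups of region and sex and all had a count, so the table is wider than a filter of 1 CPM would leave. Ensembl identifiers were matched to GENCODE M21, which gave 21103 of them a symbol. Upstream sequences came from RefSeq.

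Counts were scaled with TMM factors and tested with edgeR 4.0.16 (quasi-likelihood F-test) in R 4.3.3, with region and sex fitted over all 35 samples and p-values adjusted by the Benjamini-Hochberg method over all genes. CPM values were computed from these counts. Depth was 37680501 to 54131421 counts per sample, and 3 counts corresponded to 0.0561 to 0.0789 CPM. The library protocol has no molecular identifiers, so intervals and floors cover counting error only. In simulated counts of the same 21236 genes, 90 of 100 genes changed by 1 on the log2 scale and 99 of 100 changed by 2 were recovered, with 8 false calls. The changed genes were taken from those that averaged over 1 CPM, so recovery under that level was not tested. Libraries were drawn independently, without a correlation within mice. Genes were named if they had the 10 largest log2 fold changes in each direction (mean of at least 8 CPM, same direction in all 11 mice), the 10 smallest p in each direction, membership of a list described, or the 3 largest fitted folds in each direction. Summed CPM of cell type markers were compared within mice with exact sign-flip permutation tests. The members and lists were chosen with earlier results of these data known.

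Samples with the same number came from the same mouse. Over 11 mice, the deviations of the PFC and midbrain samples from their group means had a mean correlation of 0.246 (0.011 to 0.435) within a mouse and -0.047 between mice of the same sex. The mouse was used as a block in an alternative fit. Other alternatives were DESeq2 1.42.0, limma 3.58.1 (voom), other size factors, filters on low counts, and PFC and midbrain samples alone. An index of neuronal markers as covariate, each mouse left out and each set of 6 mice alone were also used. For each sex, the regional contrast was taken from a fit of 6 groups of region and sex over all 35 samples. A fit that left out the striatum sample whose column name and label disagree, the fit with the sets of 6 mice as a covariate, list counts without mice 2 and 6, and ratios of summed counts without each library were added after seeing the data. No replicate pair agreed within sampling noise. A few genes of the lists are not reported by name here.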

Additional observations from a re-analysis of the deposited data

Results flagged for a closer look

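Within each region and sex, 200 groups of 5 or 6 samples were searched for a highest or lowest sample far from the others by Dixon's test, which by chance picks out about 1 in 20 groups, and 21 values were found. The midbrain of mouse 6 was the highest of its group for H2-Eb1 at 389 CPM, H2-Aa at 583 CPM, H2-Ab1 at 1187 CPM and Cd74 at 1498 CPM. It was also the highest for Cybb at 77.9 CPM, Clec7a at 47.3 CPM and Gpr65 at 54.1 CPM, and for the border macrophage sum at 219 CPM and the lymphocyte sum at 988 CPM. The midbrain of mouse 11 stood above its group for H2-Aa at 135 CPM, H2-Ab1 at 389 CPM, Cd74 at 694 CPM, Fxyd5 at 24.5 CPM and Anxa5 at 143 CPM. In other midbrain samples, Emp3 reached 57.5 CPM in mouse 5, Slc17a7 0.342 CPM in mouse 3 and Chrdl1, a secreted inhibitor of bone morphogenetic proteins, 0.107 CPM in mouse 4. The astrocyte sum of the PFC of mouse 12 was 588 CPM, the mural cell sum of the midbrain of mouse 3 was 10.8 CPM, and the sums of ependyma and choroid plexus markers were 17.6 CPM in the midbrain of mouse 5 and 12.9 CPM in that of mouse 2.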

How the results depend on the processing

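Against 1385 called genes (611 higher in the PFC and 774 in the midbrain), leaving out each mouse gave 1145 to 1325, from 455 to 602 higher in the PFC and from 639 to 770 higher in the midbrain. Requiring at least 10 counts in every sample gave 912, of which 374 were higher in the PFC, and with PFC and midbrain samples alone in the fit 375 genes were higher in the PFC. The neuronal marker covariate gave 804 genes (294 and 510). Fewer genes were also called within parts of the data. Mice 1 to 6 alone gave 386 (115 and 271), and mice 7 to 12 alone gave 921 (455 higher in the midbrain). The contrast within each sex gave 385 (173 and 212) in males and 475 (169 and 306) in females. The sets of mice were of nearly equal size, and the cause of the difference between 386 and 921 calls was not tested. With the mouse as a replicate block 1712 genes were called, 1215 of them shared with the calls above in the same direction, and of the called genes described in the report, Apoe, Igkc, Nlrc4, Ltbp1 and Ttr were not called. With the block on the PFC and midbrain samples of the 11 mice alone, H2-Aa, Jchain and Mki67 were not called either, and 15 of the 24 mitosis genes were called. The ratios of summed counts for Gdf3, Npy, Aqp1, Chrdl1 and Slc17a7 moved by over 1.5 times without 1 library each, as given in the report. DESeq2 called 1635 and limma's voom 1731. For the genes named by size or p, 1073 results under the alternatives kept their side of the threshold, 46 lost it and 0 reversed.

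As a mean of log2 CPM in place of a sum, the neuron markers differed by 0.70 (exact adjusted p = 0.0228, n = 11), and 5 lists changed sign without passing the threshold: astrocytes at -0.013, endothelial cells at -0.091, border macrophages at -0.51, monocytes and neutrophils at 0.062 and dendritic cells at -0.13. Leaving out each mouse gave 0.61 to 1.0 for the mural sum, 0.020 to 0.21 for the border macrophage sum and -0.047 to 0.0023 for the monocyte and neutrophil sum, with the highest value of the first pair without mouse 6 and of the last without mouse 7. The causes were not tested. Genes under 1 CPM rest on few counts, and 3 counts limit what can be detected.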
